A study of Mus musculus with 10 samples.

Results

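Expression of 9 genes of the myelin sheath, Mbp, Mobp, Mog, Mag, Cnp, Mal, Cldn11, Opalin and Ermn, was described in sorted hippocampal material, where they were 9 of the 53379 genes in each count table. The genes were chosen by symbol, with earlier results of these data in view, so their levels are a description and carry no test of the choice itself. RNA-seq counts were available for 10 libraries: 3 mock, 2 aversive (neg), 2 appetitive (pos) and 3 neutral (neu). The study tagged cells that were active during an experience with EYFP, with 2 viruses, 1 with the transactivator tTA behind the c-Fos promoter, which is not a promoter of one cell type, and 1 with ChR2-EYFP behind TRE. All mice were male and 5 weeks old, and hippocampal regions were microdissected and sorted by EYFP, as nuclei by the study's Results and as cells by its Methods. Aversive mice received 4 foot shocks of 1.5 mA, each of 2 s, and appetitive mice met a female for 1 h by the labels. Neutral mice were placed in the conditioning cage with neither stimulus. Mock mice stayed in the home cage and were untagged controls by the study's Methods, although their labels also name the ChR2-YFP transgene; by the Methods mock material came from 2 mice, fewer than the 3 mock libraries, so some mock libraries may share an animal. For each experimental condition 8 mice were pooled, and the sources do not say whether the libraries of a condition came from separate pools, so the p-values measure only the spread between these libraries, which may be technical. Libraries of the neutral group were made with the SMART-seq v4 Ultra Low Input kit, the others with the SMARTerUltra-lowPOLYA-V4 kit by the labels; neutral libraries were sequenced as paired reads of 100 bp, the others as single reads of 40 bp, so the neutral condition and the kit cannot be told apart.

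Myelin is the stack of oligodendrocyte membrane wrapped around axons in the brain. Mbp (myelin basic protein) and Mobp (myelin-associated oligodendrocyte basic protein) are small basic proteins that hold the cytoplasmic faces of the compact sheath together, and Mbp mRNA is carried into the cell's processes before it is translated. Mog lies on the outer face of the sheath, Mag on the innermost wrap facing the axon, Cldn11 forms the tight junctions between wraps, Mal is a raft-associated membrane protein, Cnp keeps cytoplasmic channels open in the non-compact sheath, Ermn binds the actin cytoskeleton and Opalin is a membrane glycoprotein of mature oligodendrocytes.

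Promoter windows from RefSeq (GRCm38.p6) ran from 250 bases before to 50 bases after a transcript start. Windows of 8 of the 9 genes, 10 windows in all, were searched. Mbp was left out of the search, so nothing is given on its promoter. Both strands were searched for the core recognized by SoxE factors such as Sox10 (ACAAAG or ACAATG), a core of Myrf (CTGGCAC), the E-box CAGCTG and the TATA box TATAAA, of which none contains another. A gene was counted where any of its windows held a motif (Mag had 3 windows), while the shares of all windows are per window. The SoxE core was found for 5 of the 8 genes, against 28.6% of all 32851 windows, and the Myrf core for 3 (Mag, Cnp and Opalin), against 5.01%. An E-box was found for 1 gene, Opalin, against 16.3% of windows, and a TATA box for 0, against 13.6%. These matches are of letters only. The first 200 bases of 3 windows are shown, 5′ to 3′ in the direction of transcription, because Mobp had 6 SoxE cores, the most among the 8 genes, and Cnp and Mag held 1 SoxE and 1 Myrf core each; capitals mark these motifs on either strand. The stretches lie at chr9:120149492-120149691 (plus strand), chr11:100574689-100574888 (plus strand) and chr7:30914914-30915113 (minus strand).
Mobp: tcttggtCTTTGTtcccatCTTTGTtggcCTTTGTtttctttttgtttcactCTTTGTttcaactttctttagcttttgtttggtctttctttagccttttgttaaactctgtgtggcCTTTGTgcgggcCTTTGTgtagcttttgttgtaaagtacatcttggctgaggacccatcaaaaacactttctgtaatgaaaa
Cnp: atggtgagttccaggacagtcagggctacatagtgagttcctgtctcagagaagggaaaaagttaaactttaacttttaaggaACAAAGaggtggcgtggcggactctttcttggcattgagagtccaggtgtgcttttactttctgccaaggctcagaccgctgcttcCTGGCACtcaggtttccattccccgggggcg
Mag: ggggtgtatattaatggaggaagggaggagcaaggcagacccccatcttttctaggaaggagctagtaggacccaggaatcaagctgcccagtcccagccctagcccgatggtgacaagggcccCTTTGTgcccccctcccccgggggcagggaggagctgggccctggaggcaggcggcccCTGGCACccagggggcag

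In the genome annotation (GRCm38, GENCODE M21) the genes lie apart. Mbp was annotated at chr18:82475146-82585637 on the plus strand, Mobp at chr9:120149707-120181484 on the plus strand, Cnp at chr11:100574904-100591729 on the plus strand and Cldn11 at chr3:31149920-31164324 on the plus strand. On the minus strand were Mog at chr17:37010743-37023398, Mag at chr7:30899176-30914873, Mal at chr2:127633226-127656695, Ermn at chr2:58045113-58052864 and Opalin at chr19:41061710-41077113. Reads were counted over exons and without regard to strand, so counts of Cnp, which overlaps Dnajc7, of Ermn, which overlaps Galnt5, of Mog, which overlaps Gm22388, and of Mbp, which overlaps the pseudogene Rpl21-ps8, could include reads from a partner on the other strand. Mobp overlaps Gm38642 on its own strand.

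Total counts per library ranged from 16968588 (appetitive 2) to 67650693 (neutral 2). All 9 genes were counted in every library, with a lowest count of 95 (Cldn11 in neutral 1) and a highest of 8219350 (Mbp in appetitive 1), above the 3 counts taken as the floor, and all 9 passed the filter on low counts. The series' design text calls the tagged cells neurons. Levels are given as normalized CPM, the counts in every 1000000 counts (CPM) of a library size scaled by TMM normalization. A list of 10 neuron markers summed to between 72.8 and 748.7 CPM per library, and 3 of them were at 0 in both appetitive libraries. The 9 myelin genes together summed to between 6660.6 and 777765.4 CPM. Markers of Schwann cells, which make myelin outside the brain, summed to at most 46.2 CPM over 7 genes. In these bulk libraries, fewer oligodendrocytes and less RNA per oligodendrocyte cannot be told apart. Intervals cover counting error only, since reads of amplified cDNA without molecular identifiers are not independent molecules.

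The 9 genes took between 0.826% and 37.3% of all counts of a library, with a median of 4.82%. In appetitive 1 the share was 37.3%, in mock 1 30.7%, in aversive 1 29.3% and in mock 2 26.7%. The other 6 libraries lay at 5.62% or less, so each of the mock, aversive and appetitive groups held libraries of both kinds. The Wilson 95% interval of each share was within 0.271% of its value, far narrower than these gaps. Most of the high shares was Mbp, which took 30.8% of all counts in appetitive 1 and was the most abundant gene there. Mobp took between 0.165% and 7.57% of counts, and the remaining 7 genes together between 0.0604% and 2.54%.

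**Figure D1:**
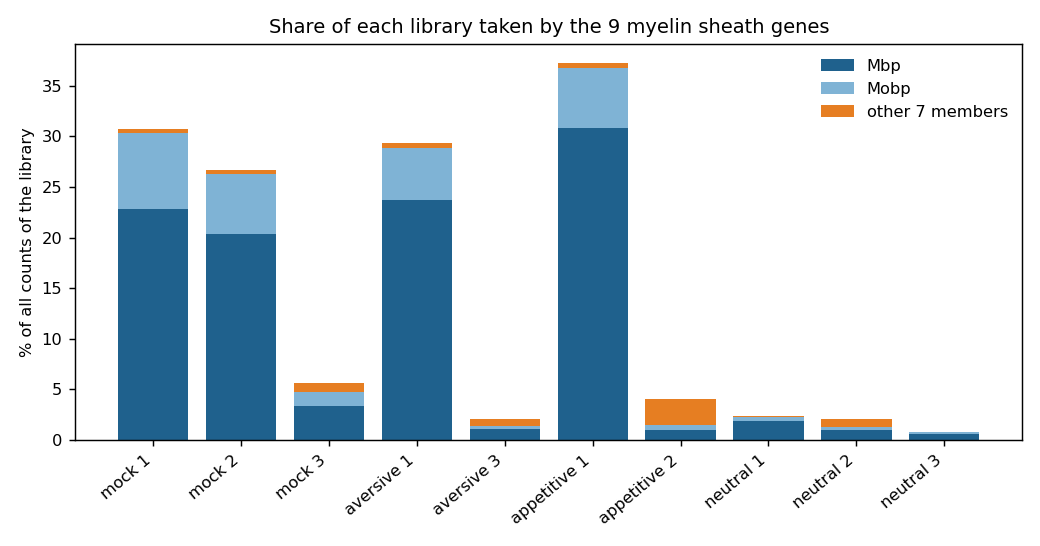
Share of all counts (%) taken by Mbp, Mobp and the other 7 myelin sheath genes in each of the 10 libraries, as stacked bars. The bars of mock 1, mock 2, aversive 1 and appetitive 1 reach 26.7% to 37.3%, and the other 6 reach at most 5.62%; the part of the other 7 genes is largest in appetitive 2 (2.54%).

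Mbp, the major basic protein of compact myelin, had levels of 264542.7, 217442.4 and 23232.0 CPM in mock 1, 2 and 3, 322292.7 and 8548.1 CPM in aversive 1 and 3, 642739.4 and 8739.7 CPM in appetitive 1 and 2, and 17459.3, 7665.8 and 4846.9 CPM in neutral 1, 2 and 3. The level of appetitive 1 exceeds its share of counts because its TMM factor was 0.48, the lowest of all. The same libraries were high and low for Mobp, with 87995.2, 62773.0 and 9419.7 CPM in mock, 69847.3 and 2320.7 in aversive, 125333.7 and 4411.5 in appetitive and 4565.8, 2073.2 and 1327.0 in neutral libraries. For both genes 1 aversive and 1 appetitive library lay among the highest and the other among the lowest, and no pair of neighbouring groups, ordered by their means, was free of overlap. The mean level of Mbp was 325739.5 ± 448305.4 CPM (SD, n = 2) in appetitive, 168405.7 ± 127910.8 (SD, n = 3) in mock, 165420.4 ± 221850.9 (SD, n = 2) in aversive and 9990.7 ± 6619.8 (SD, n = 3) in neutral libraries. The SD exceeded the mean in the aversive and appetitive groups.

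Cnp, the enzyme of the non-compact sheath, had levels of 2195.1, 1912.0 and 2571.2 CPM in mock, 2853.7 and 1858.3 in aversive, 3466.4 and 5469.2 in appetitive and 360.5, 2873.2 and 244.7 in neutral libraries 1, 2 and 3. Appetitive 2, among the lowest libraries for Mbp, was the highest for Cnp, and neutral 2 lay far above the other neutral libraries. Ermn, the actin-binding protein, had 638.3, 446.5 and 430.1 CPM in mock, 351.6 and 313.9 in aversive, 753.0 and 1615.0 in appetitive and 64.55, 443.3 and 31.41 in neutral libraries. Its appetitive levels lay above both mock and aversive levels, and its aversive levels below all mock levels.

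On the faces of the sheath, Mag, the adhesion molecule next to the axon, had 429.8, 707.5 and 1107.0 CPM in mock, 1387.3 and 851.2 in aversive, 1266.3 and 3124.2 in appetitive and 104.6, 1303.6 and 80.27 in neutral libraries. Mog, the outer-surface protein, had 240.0, 312.1 and 473.2 CPM in mock, 554.8 and 691.7 in aversive, 549.8 and 3292.1 in appetitive and 60.66, 708.2 and 40.14 in neutral libraries. Both were highest in appetitive 2 and lowest in neutral 3. Mog was higher in both aversive libraries than in any mock library, and its other neighbouring groups overlapped.

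Among the remaining membrane proteins, Mal had 830.7, 901.8 and 1128.0 CPM in mock, 1093.1 and 1338.0 in aversive, 2516.1 and 5805.0 in appetitive and 132.7, 1044.6 and 83.34 in neutral libraries. Opalin had 130.6, 167.5 and 183.4 CPM in mock, 334.4 and 364.6 in aversive, 980.3 and 2468.3 in appetitive and 30.68, 325.7 and 5.165 in neutral libraries. Both were higher in each appetitive library than in any aversive library, and Opalin was also higher in each aversive library than in any mock library. Cldn11, the tight junction protein, was the scarcest of the 9 genes, with 36.71, 31.2 and 175.3 CPM in mock, 39.13 and 349.1 in aversive, 160.5 and 814.2 in appetitive and 1.499, 25.95 and 1.709 in neutral libraries. Its neutral levels lay below all mock levels, and mock, aversive and appetitive overlapped.

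**Figure D2:**
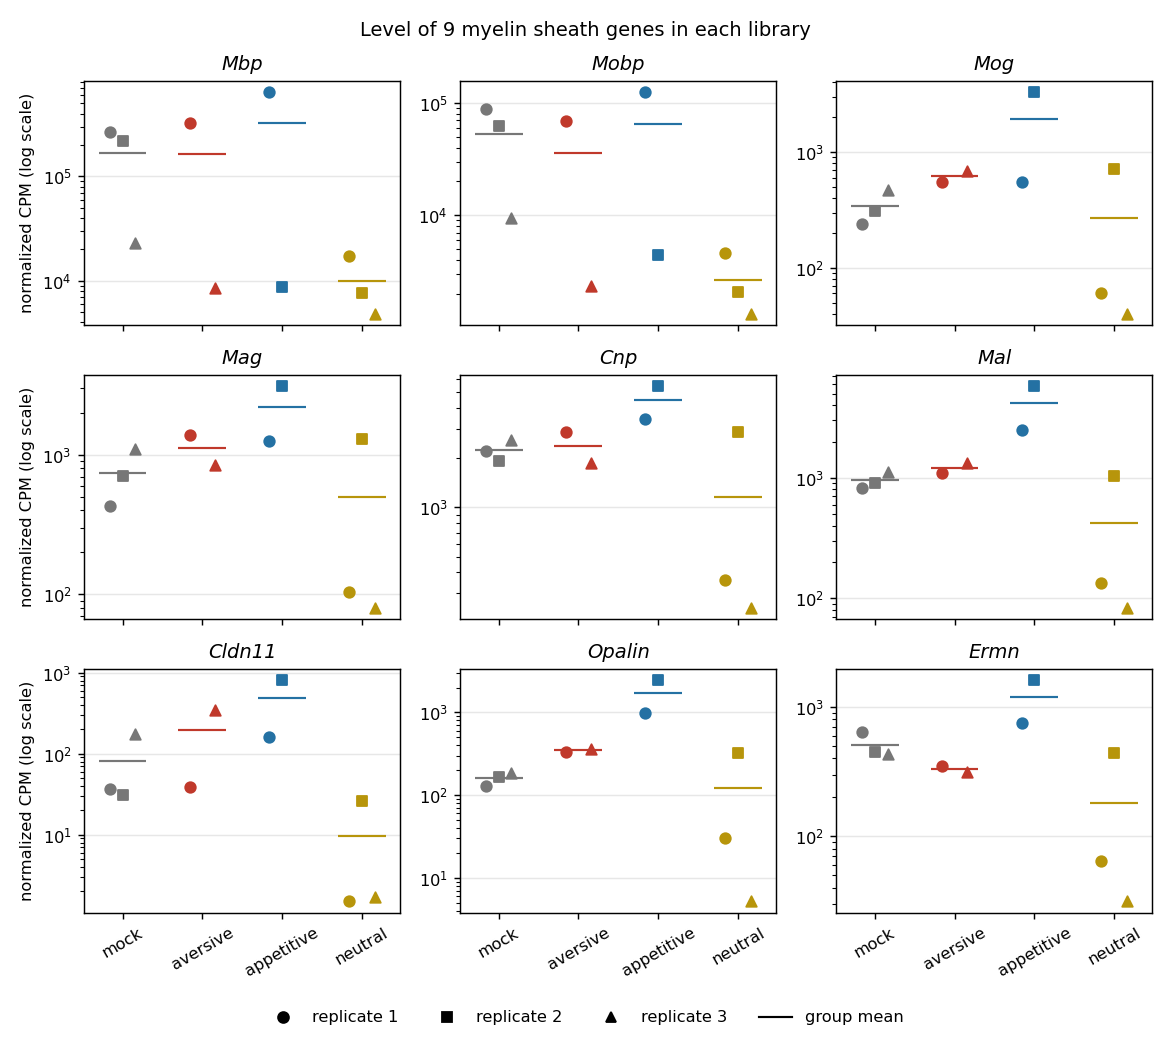
Normalized CPM (log scale) of each of the 9 myelin sheath genes in the mock (n = 3), aversive (n = 2), appetitive (n = 2) and neutral (n = 3) libraries; symbols mark the replicate number and lines the group mean. For Mbp and Mobp the replicates of a group lie far apart, and for the other 7 genes appetitive 2 is the highest library and neutral 2 lies above neutral 1 and 3.

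Ordered by group mean, 6 genes (Mog, Mag, Cnp, Mal, Cldn11 and Opalin) ran from appetitive through aversive and mock to neutral, and Mbp, Mobp and Ermn from appetitive through mock and aversive to neutral. Neighbouring groups in these orders were free of overlap for Cnp and Mal between appetitive and aversive, for Mog between aversive and mock and for Cldn11 between mock and neutral. Opalin was free of overlap between appetitive and aversive and between aversive and mock, and Ermn between appetitive and mock and between mock and aversive. All other neighbours overlapped. Such separations were common, as 28.4% of all tested genes were free of overlap between appetitive and aversive, 36.1% between aversive and mock, 48.7% between appetitive and mock and 32% between neutral and mock. With library size alone as the scale, those of Opalin between appetitive and aversive and of Ermn between mock and aversive remained. Compared per kilobase of exon, the median level over the 10 libraries was 2402.4 CPM per kb for Mbp, 1021.0 for Mobp, 654.9 for Cnp, 384.8 for Mal, 300.2 for Mog, 240.4 for Mag, 120.1 for Ermn, 86.4 for Opalin and 20.3 for Cldn11. With the longest transcript as the length, or with scaling by library size alone, places changed only among Mal, Mog and Mag.

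Within a library, the genes fell into the pair of Mbp and Mobp on one side and the other 7 genes on the other. This split was made after the values were seen and has no test. The ratio of Mbp and Mobp counts to the counts of the other 7 genes was 78.3, 62.6 and 5.38 in mock 1, 2 and 3, 59.3 and 1.88 in aversive 1 and 3, 79.2 and 0.582 in appetitive 1 and 2, and 29.2, 1.45 and 12.7 in neutral 1, 2 and 3. Mbp and Mobp thus made up 98.8% of the counts of the 9 genes in appetitive 1 and 36.8% in appetitive 2. A ratio of counts within a library does not depend on the scaling between libraries, and it differed between libraries of the same group by up to the full range seen across all groups.

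The count ratio of Mbp to Mobp stayed between 1.98 and 5.13, a 2.59-fold range, with an SD of its log2 of 0.403 over the 10 libraries. The ratio of Mbp to Cnp ran from 1.6 to 185.4, a 116.0-fold range, with an SD of 2.54. Over the 14 pairs of Mbp or Mobp with another of the genes, the SD of the log2 ratio was 2.3 to 3.76, and over the 21 pairs among the other 7 genes it was 0.442 to 1.88. These ranges did not touch, and in the 7 libraries made with the same kit they were 2.45 to 4.22 and 0.461 to 1.59. The steadiest pairs were Mbp with Mobp, Mag with Cnp (SD 0.442, a 2.92-fold range), Cnp with Ermn (0.444, 2.4-fold) and Mog with Mag (0.445, 2.63-fold). Cldn11 was the least steady of the 7, and its ratios to Cnp spanned a 45.2-fold range, or 13.7-fold among the 7 libraries made with the same kit.

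**Figure D3:**
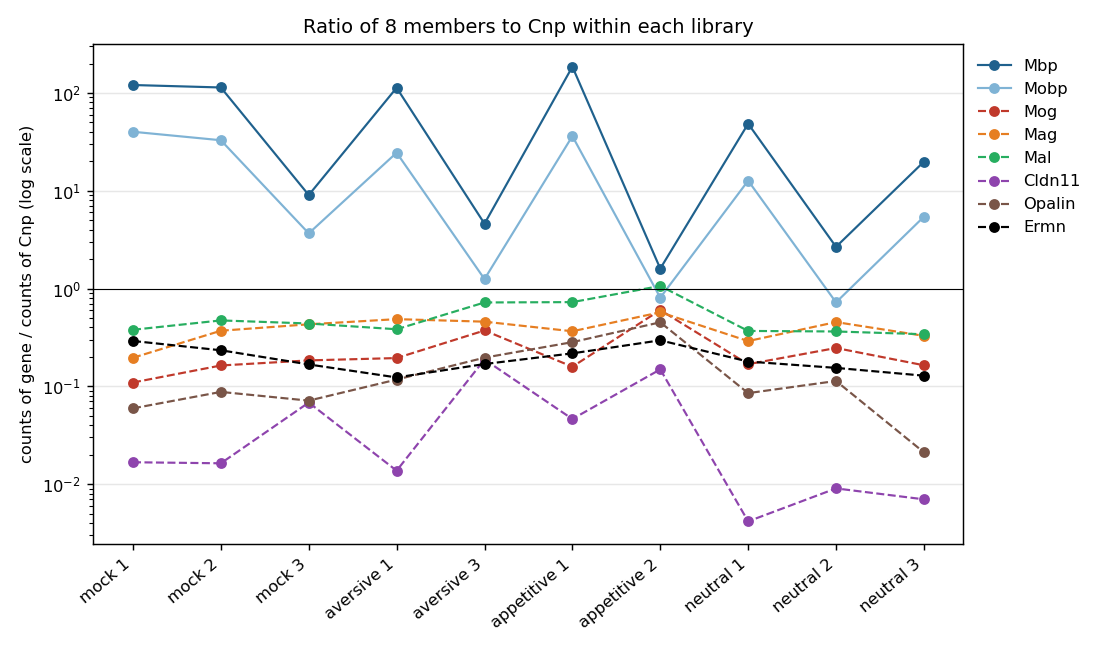
Counts of 8 myelin sheath genes divided by the counts of Cnp in the same library (log scale), for each of the 10 libraries; lines only join the points of a gene. Mbp and Mobp (solid lines) rise and fall together, from 185.4 for Mbp in appetitive 1 to 1.6 in appetitive 2, while Mag and Ermn stay within 2.92-fold and 2.4-fold ranges.

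Other genes of myelinating oligodendrocytes were set against the same pair of references. Of 22 further myelin and oligodendrocyte membrane genes, 2 had a smaller SD of the log2 ratio to Mbp than to Cnp, and 20 the reverse. The reverse was also the rule among all other tested genes, of which 86.9% were steadier to Cnp. The 2 were Plekhb1, a membrane-associated protein with a pleckstrin homology domain (SD 0.52 to Mbp and 2.14 to Cnp), and Bcas1, a marker of myelinating oligodendrocytes (0.673 and 2.73; named after its values were seen). Plekhb1 had 21507.6, 16199.6 and 1730.6 CPM in mock, 19740.2 and 774.9 in aversive, 41567.5 and 1818.3 in appetitive and 1291.6, 942.4 and 419.9 in neutral libraries, so the same 4 libraries as for Mbp were high. Qdpr, a pteridine reductase, lay between the references, with SDs of 1.42 to Mbp and 1.4 to Cnp. Enpp2, an enzyme that oligodendrocytes and the choroid plexus both express, was unsteady to both (3.76 and 2.48) and highest in neutral 3 (14758.8 CPM).

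Of the 9 transcription factors of the lineage, 0 were steadier to Mbp than to Cnp, and of the 7 genes of myelin lipid synthesis likewise 0. Lists of other cells gave similar counts, with 0 of 6 microglia, 0 of 5 endothelial, 0 of 5 choroid plexus, 1 of 6 astrocyte and 2 of 10 neuron markers steadier to Mbp. Olig1, a factor of the oligodendrocyte lineage, had an SD of 0.445 to Cnp and 2.7 to Mbp, Sox10, an activator of myelin genes, 0.648 and 3.04, and Nkx6-2 1.01 and 3.01. Among lipid enzymes, Ugt8a, which makes galactosylceramide, had 0.709 to Cnp and 2.61 to Mbp, Fa2h, which hydroxylates its fatty acids, 0.729 and 3.11, and Cers2, a ceramide synthase of very long chains, 1.42 and 3.15. These 6 genes, like Cnp, were highest in appetitive 2, where Sox10 reached 327.8 CPM and Olig1 703.4 CPM. The 10 genes listed as markers of oligodendrocyte precursors were low, with sums of 52.0 to 342.3 CPM. Enpp6, the most abundant of them per kilobase, made up most of the sums of the appetitive libraries. It had 184.5 of 185.4 CPM in appetitive 1 and 286.8 of 342.3 CPM in appetitive 2.

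**Figure D4:**
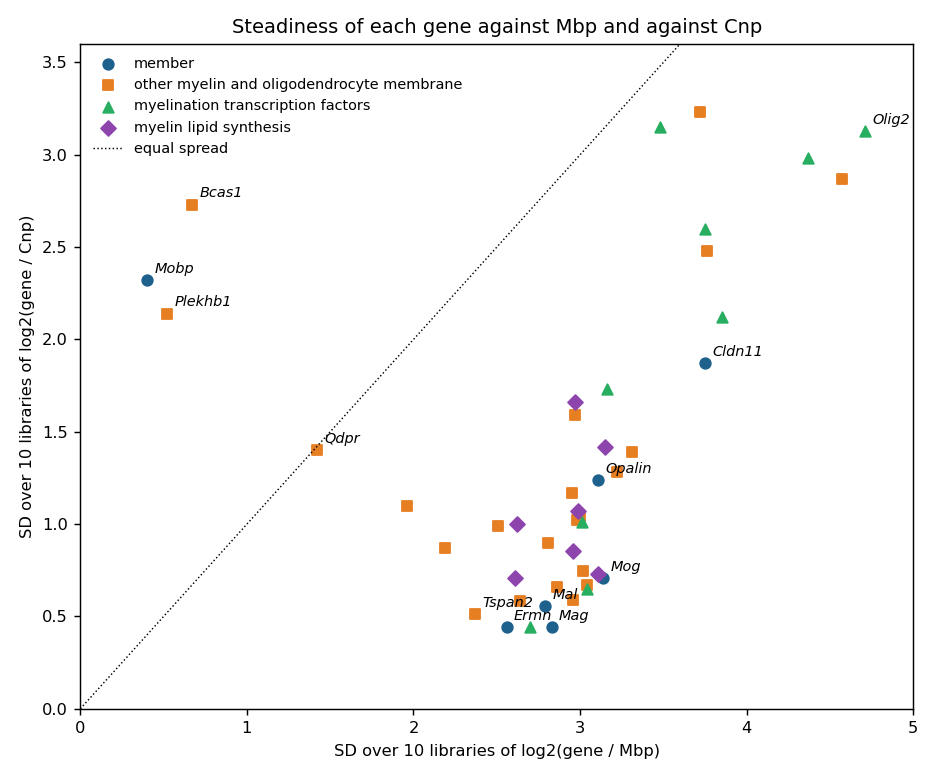
SD over 10 libraries of the log2 ratio of each gene to Mbp (x axis) and to Cnp (y axis), for the myelin sheath genes ("member") and 3 lists of related genes; the dotted line marks equal spread. Mobp, Plekhb1 and Bcas1 lie far above the line at SDs of 0.403, 0.52 and 0.673 to Mbp, Qdpr lies on it, and most other genes lie below it.

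Genes whose pattern was most like the mean of the 9 standardized log2 levels were ranked by Pearson r over the 10 libraries among 9438 protein-coding genes with a mean of at least 10 CPM. They were Efhd1 (r = 0.983), Tspan2 (0.981), Pex5l (0.981), Fez1 (0.977), Psat1 (0.976), Ephb1 (0.965), Tmcc3 (0.962), Ugt8a (0.959) and Gjc3 (0.958). These are descriptions over 10 libraries that share depth, kit and scaling. In the 7 libraries made with the same kit the values of r for these genes were 0.665 (Gjc3) to 0.959 (Fez1). Of the 9 genes themselves, Mbp (0.486) and Mobp (0.544) were least like their common mean, and the other 7 lay between 0.864 (Cldn11) and 0.978 (Cnp).

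The design implies 6 comparisons between groups, which were read from 1 edgeR quasi-likelihood model of all 10 libraries and 19754 genes, with Benjamini-Hochberg adjustment over all of them. The genes of this description were chosen with these contrasts in view, so the counts are given beside the share of all tested genes and are no test of the genes as a set. The common dispersion was 1.49, a coefficient of variation between libraries of 122%. At an adjusted p under 0.05, 0 of the 9 genes were called in any of the 6 comparisons. DESeq2's Wald test gave no adjusted p for 5 of the 9. It called 3 in appetitive against neutral (5952 of 35266 genes in all), 1 in neutral against mock (1573) and 0 in the other 4. In those 4 it called 3334 genes in aversive against neutral and 3948 in appetitive against aversive. Against mock it called 1442 in aversive and 4658 in appetitive libraries. The comparisons with mock share the mock libraries, and those with neutral share the neutral libraries.

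Between appetitive and neutral libraries, all 9 genes had positive fitted differences, with a median log2 fold change of 3.31, against a median of -0.91 over all tested genes. None passed the adjusted threshold, where 6.17% of all tested genes were called, and 8 of the 9 had an unadjusted p under 0.05, against 29.3% of all tested genes. The largest was Cldn11, at 5.65 ± 1.56 (SE; adjusted p = 0.0549), followed by Mbp at 5.03 ± 1.65 (adjusted p = 0.0821) and Mobp at 4.61 ± 1.47 (adjusted p = 0.0774). Both of the latter rested on appetitive 1, and without it Mbp lay at -0.27 and Mobp at 0.65. The differences of the other 7 genes were smaller without appetitive 2, with Mog at 0.93 (2.83 with it), Mal at 2.49 and Cldn11 at 3.95. Mal lay at 3.31 ± 0.94 (adjusted p = 0.0585) and Opalin at 3.84 ± 1.24 (adjusted p = 0.0792). Levels of the groups did not overlap for 5 genes (Cnp, Mal, Cldn11, Opalin and Ermn, all higher in appetitive). Of the 19754 tested genes 38.6% did not overlap in either direction, with 2251 higher and 5375 lower in appetitive. With library size alone 3 of the 9 genes (Mobp, Cldn11 and Opalin) did not overlap. Neutral 2 lay apart from the other neutral libraries. Without it the median was 4.88 and 7 genes (all but Mbp and Mobp) were called, where 777 of 18854 genes were called in all. Of related genes, 3 passed in the same comparison by edgeR with Benjamini-Hochberg adjustment, all higher in appetitive: Apod, a lipid-binding apolipoprotein, at 4.42 ± 0.99 (adjusted p = 0.0318), Ugt8a at 3.81 ± 0.85 (adjusted p = 0.0317) and Aspa, the aspartoacylase of oligodendrocytes, at 3.45 ± 0.91 (adjusted p = 0.05 after rounding). They were 1 of the 22 other membrane genes and 2 of the 7 lipid genes, and 0 of the 9 transcription factors passed. Drp2, of the Schwann cell list, also passed by edgeR, at 7.70 ± 1.78 (adjusted p = 0.0349). It had 17 and 35 counts in appetitive 1 and 2 and 1, 0 and 0 counts in neutral 1, 2 and 3, so its fold change rests on values near the floor. Its highest level, 28.3 CPM, was in aversive 3. With the groups compared alone 0 of 16100 genes passed, and of 17 alternatives Apod passed in 8, Ugt8a in 9 and Aspa in 5.

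Between aversive and neutral libraries, all 9 fitted differences were positive, with a median log2 fold change of 1.53 (-0.15 over all tested genes). None was called, where 0.0405% of all tested genes were, and 3 had an unadjusted p under 0.05, against 19.1% of all tested genes. These were Cldn11 at 4.32 ± 1.48 (adjusted p = 0.18), Mbp at 4.05 ± 1.59 (adjusted p = 0.218) and Mobp at 3.76 ± 1.43 (adjusted p = 0.207), while the other 6 lay between 0.89 (Ermn) and 1.54 (Opalin). Mbp and Mobp rested on aversive 1, without which they lay at -0.19 and -0.16, and Cldn11 lay at 2.02 without aversive 3. Mal, Cldn11 and Opalin did not overlap and were higher in aversive. Of the 19754 tested genes 33.7% did not overlap in either direction, with 2838 higher and 3816 lower in aversive. With library size alone 0 of the 9 genes were free of overlap. Without neutral 2 the median was 3.63.

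Neutral libraries lay below mock for all 9 genes in the fit, with a median log2 fold change of -1.18 (0.08 over all tested genes). None was called, where 0.0861% of all tested genes were. At an unadjusted p under 0.05 were 3 genes, against 13.5% of all tested genes, Mobp at -4.33 ± 1.41 (adjusted p = 0.203), Mbp at -4.08 ± 1.53 (adjusted p = 0.258) and Cldn11 at -3.06 ± 1.35 (adjusted p = 0.35). The same 3 genes did not overlap between the groups, all lower in neutral. Of all tested genes 32% did not overlap in either direction, with 3164 higher and 3149 lower in neutral. With library size alone Mbp and Mobp did not overlap. The other 6 lay between -1.49 (Ermn) and -0.34 (Mog), and Mog and Opalin turned to 0.12 and 0.03 without neutral 1 and to 0.16 and 0.14 without neutral 3. Without neutral 2 the median was -3.17. Markers of other cells moved beside these neutral comparisons. The 6 astrocyte markers summed to 150.4 to 332.3 CPM in neutral and 3071.5 to 14281.7 CPM in the other libraries, and the 5 choroid plexus markers to 21773.8 to 133189.6 CPM in neutral, with Ttr, the transthyretin of that tissue, at 128856.4 CPM in neutral 1, and to 848.8 to 13904.9 CPM in the others. The 6 microglia markers summed to 35.7 to 253.4 CPM in neutral and 707.4 to 8367.1 CPM in the others, and the 10 neuron markers to 72.8 to 86.2 and 181.0 to 748.7 CPM. Most of the appetitive neuron sums was Snap25, with 577.2 CPM in appetitive 1 and 154.0 CPM in appetitive 2. In the fit 9 of the 10 neuron markers were lower in neutral than in mock, and 9 were higher in aversive than in neutral. Between appetitive and neutral, 4 were higher and 6 lower in appetitive (median log2 fold change -1.57, 1 without overlap in each direction). The 5 endothelial markers overlapped, at 99.1 to 2482.8 CPM in neutral and 124.0 to 2533.8 CPM in the others. No astrocyte, choroid plexus, microglia or endothelial marker was at 0 in all libraries of a group, and the part of these cells, and of the kit, in the myelin values was not tested.

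Between appetitive and aversive libraries, prepared with the same kit, all 9 genes had positive fitted differences, with a median log2 fold change of 1.33 (-0.48 over all tested genes). None was called, where 1.8% of all tested genes were, and 0 had an unadjusted p under 0.05 by edgeR, against 20% of all tested genes. Opalin had the largest difference, 2.30 ± 1.36 (adjusted p = 0.378), then Ermn at 1.83 ± 1.06 (adjusted p = 0.362) and Mal at 1.78 ± 1.03 (adjusted p = 0.366), and Mobp the smallest, 0.85 ± 1.51 (adjusted p = 0.863). Directions turned with 1 library, since Mbp lay at -4.41 and Mobp at -3.20 without appetitive 1, and at 5.15 and 4.70 without aversive 1. Mog lay at -0.31 and Cldn11 at -0.38 without appetitive 2, and Mobp at -0.11 and Cldn11 at 3.63 without aversive 3. With the replicate block Mag lay at -0.08. Cnp, Mal, Opalin and Ermn did not overlap and were higher in appetitive. Of all tested genes 28.4% did not overlap in either direction, with 1648 higher and 3962 lower in appetitive. With library size alone as the scale 1 of the 9 genes (Opalin) did not overlap. Choroid plexus markers summed to 7060.0 and 13904.9 CPM in aversive and to 848.8 and 2942.9 CPM in appetitive libraries. Of the 10 neuron markers 9 were lower in appetitive in the fit (median log2 fold change -4.79, 4 without overlap), of the 6 astrocyte markers 5 (-0.99, 4 without overlap), of the 6 microglia markers 6 (-1.16, 1 without overlap) and of the 5 endothelial markers 4 (-0.37, 0 without overlap). The part of these cells was not tested.

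Against mock, the appetitive libraries had positive fitted differences for all 9 genes, with a median log2 fold change of 1.55, and the median of all tested genes was -1.45. None was called, where 1.98% of all tested genes were. At an unadjusted p under 0.05 were 3 genes, against 23.8% of all tested genes, Opalin at 3.43 ± 1.22 (adjusted p = 0.146), Mog at 2.49 ± 1.12 (adjusted p = 0.206) and Mal at 2.13 ± 0.91 (adjusted p = 0.192). Mbp lay at 0.95 ± 1.49 (adjusted p = 0.705) and Mobp at 0.28 ± 1.36 (adjusted p = 0.914), and both turned without appetitive 1, to -4.51 and -3.84, and with the replicate block, to -0.88 and -1.25. Mobp also lay at -0.60 with library size alone, at -0.33 with at least 10 counts in every library and at -0.19 without mock 3, and Mog at 0.50 and Cldn11 at 0.82 without appetitive 2. Mog, Mag, Cnp, Mal, Opalin and Ermn did not overlap and were higher in appetitive. Of the 19754 tested genes 48.7% did not overlap in either direction, with 1932 higher and 7689 lower in appetitive. With library size alone 1 of the 9 genes (Opalin) did not overlap. Of the 10 neuron markers 8 were lower in appetitive in the fit (median log2 fold change -3.89, 6 without overlap), of the 5 choroid plexus markers 4 (-3.33, 3 without overlap), of the 5 endothelial markers 5 (-1.97, 2 without overlap), of the 6 microglia markers 6 (-1.49, 1 without overlap) and of the 6 astrocyte markers 5 (-1.26, 3 without overlap). Their part was not tested.

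In the aversive libraries, 6 genes lay above and 3 (Mbp, Mobp and Ermn) below mock in the fit, with a median log2 fold change of 0.35 (-0.13 over all tested genes). None was called, where 0% of all tested genes were, and 0 of the 9 had an unadjusted p under 0.05 by edgeR, against 9.96% of all tested genes. The differences ran from -0.60 ± 0.95 for Ermn (adjusted p = 0.868) to 1.26 ± 1.37 for Cldn11 (adjusted p = 0.784). Without aversive 1, Mbp lay at -4.43, Mobp at -4.65 and Cnp at -0.35, and without aversive 3, Mbp at 0.94, Mobp at 0.39 and Cldn11 at -1.07. The small differences of Mbp (-0.03) and Cnp (0.08) also changed sign under several other settings, between -0.14 and 0.46. Mog and Opalin were higher and Ermn lower without overlap. Of all tested genes 36.1% did not overlap in either direction, with 2244 higher and 4883 lower in aversive. With library size alone 1 of the 9 genes (Ermn) did not overlap. Choroid plexus markers summed to 1121.2 to 3515.8 CPM in mock and to 7060.0 and 13904.9 CPM in aversive libraries, and their part was not tested.

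**Figure D5:**
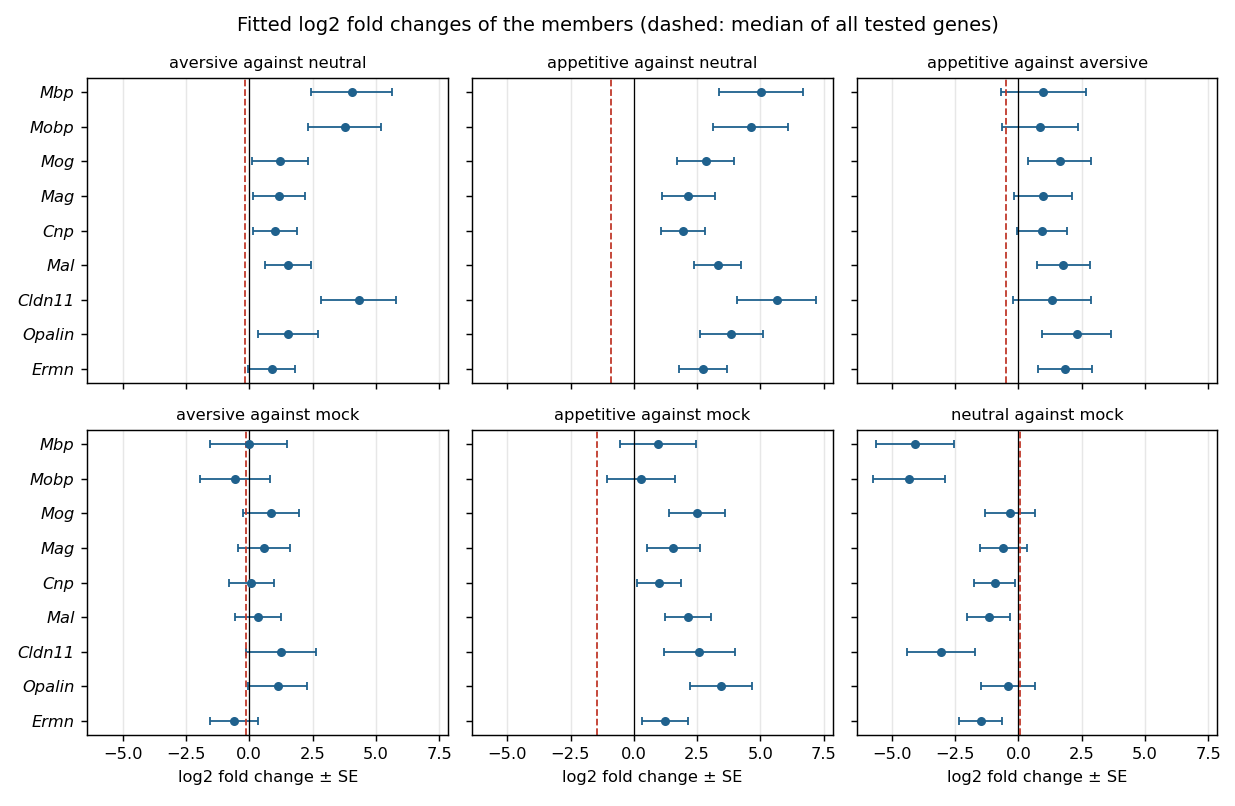
Fitted log2 fold change ± SE of the 9 myelin sheath genes ("members") in the 6 comparisons of the edgeR model; the dashed line is the median of all 19754 tested genes. Points of the appetitive comparisons all lie right of 0 and of the dashed line, those of neutral against mock all lie left of 0, and the bars of most genes are wide, up to an SE of 1.67 for Mbp between appetitive and aversive.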

How the data were processed

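RNA-seq libraries were made from sorted hippocampal material with Clontech's SMARTerUltra-lowPOLYA-V4 kit, or for neutral libraries its SMART-seq v4 Ultra Low Input kit, each followed by Nextera XT per the labels. As the study's methods state, the authors aligned only the leading 40 bp of a read with STAR (mm10, Ensembl GRCm38.91) and counted reads per gene with featureCounts of Subread, without regard to strand; the submitters' processing notes name the same tools, with versions not given in the sources used here. The deposited values are these counts without normalization, for 53379 genes in each of 10 libraries. Total counts ranged from 16968588 to 67650693.

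Groups and replicate numbers came from the labels. Of the gene identifiers, 53274 were matched to GENCODE M21. The 9 genes and all gene lists were chosen with earlier results of these data known. The rule for named genes took the 9 genes, the 3 genes of each list with the highest mean level per kilobase, and the 10 genes most like the mean of the 9, of which 1 is not reported here; others were named after their values were seen. In R 4.3.3, edgeR 4.0.16 (TMM, factors 0.48 to 1.45, filterByExpr, 19754 genes kept) fitted 1 quasi-likelihood model with 4 groups and a prior of 5.05 degrees of freedom, and its two-sided p-values had a Benjamini-Hochberg adjustment over these genes, with a threshold of 0.05. SEs were derived from edgeR's F statistics. Log2(CPM + 1) was used for correlations. Shares have Wilson 95% intervals, with 3 counts as the floor of detection. Promoter windows came from RefSeq (GRCm38.p6).

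Alternatives were a fit of each pair of groups alone, a fit of the libraries of the same kit, the replicate number as a block, leaving out each library, edgeR scaled by library size alone or by the size factors of DESeq2, the Wald test of DESeq2 1.42.0, a filter of 10 counts in every library and none; overlap between groups with library size alone was added after seeing the data. Fits were tested on simulated data. Over all tested genes, the correlations of same-numbered libraries' deviations ran from -0.04 to 0.16. Some pairs were over 0.1 and others were not, so numbers were not taken as pairing the libraries. These correlations do not speak for single genes. Mbp and Mobp were highest in replicate 1 of every group, and whether same-numbered libraries share a batch was not tested. Python 3.11.15, pandas 2.3.3 and numpy 2.4.6 were used.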

Additional observations from a re-analysis of the deposited data

How the results depend on the processing

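The median log2 fold change of the 9 genes kept its sign under every alternative run, from 2.49 to 4.88 in appetitive against neutral, 0.81 to 3.63 in aversive against neutral, 0.56 to 1.94 in appetitive against aversive, 0.82 to 1.97 in appetitive against mock, 0.11 to 0.71 in aversive against mock and -3.17 to -0.71 in neutral against mock. Of 945 fold changes of single genes under the alternatives, 33 had the opposite sign of the value reported, 22 of them on leaving out 1 library, the largest those of Mbp and Mobp without appetitive 1. The medians past 1 SD between replicates (0.89) from the value reported came without neutral 2 and, in aversive against neutral, with the replicate block (2.71). The number of the 9 genes called was 0 as reported. With no filter it moved to 3 in aversive against neutral, where 863 of 35266 genes were called in all. It moved to 9 in appetitive against neutral (2535 of all genes) and 1 in appetitive against aversive (1270). Against mock it moved to 4 in appetitive (1124) and 3, lower, in neutral libraries (520). In appetitive against neutral 2 of the 9 were called with DESeq2's size factors, where 1159 of 19754 genes were called in all. DESeq2's Wald test, which gave no adjusted p for 5 of the 9, called 3 there, and 5952 of 35266 genes in all. Without neutral 2, 7 were called there (777 of 18854 genes in all), and without neutral 1 or neutral 3, 0 were called. The number called there also moved without aversive 1, aversive 3 or appetitive 2, each of which leaves a group of 1 library. On leaving out 1 library, a group left with 1 library is assumed to vary like the others. The DESeq2 test called 1 in neutral against mock, where 1573 of 35266 genes were called in all. Groups compared alone gave 2 in appetitive against mock, where 3585 of 16471 genes were called in all. With the replicate block 0 were called in appetitive against neutral, among 73 genes in all against 1218 without the block (0 with the groups compared alone, 160 with at least 10 counts in every library, 67 to 2661 leaving out 1 library, 2535 with no filter and 5952 by DESeq2), and same-numbered libraries' deviations had correlations of -0.04 to 0.16. Genes without overlap between groups numbered, with library size alone, 0 in aversive against neutral, 3 in appetitive against neutral, and 1 each in appetitive against aversive, aversive against mock and appetitive against mock. The cause of these shifts was not tested. The lowest count of the 9 genes was 95, and each group had 2 or 3 libraries.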

Other observations

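Ranked by likeness to Mbp alone rather than to all 9 genes, a list chosen after the values were seen, the leading genes among 9446 were Mobp (Pearson r = 0.99 over 10 libraries), Plekhb1 (0.985), Bcas1 (0.977), Svip (0.975), Scd1 (0.962) and Pea15a (0.961). Scd1 makes monounsaturated fatty acids, and its level ran from 11.8 to 846.6 CPM. In the 7 libraries made with the same kit, r for these 6 genes was 0.964 to 0.989. Ranked by likeness to the mean of the 7 genes other than Mbp and Mobp, the reported leading genes were Tnfaip6 (0.986), Tmeff2 (0.978), Sox10 (0.978), Tubb4a (0.975) and Pex5l (0.969). Tubb4a, a tubulin abundant in oligodendrocytes, ran from 161.4 to 4220.0 CPM. Only Pex5l stood both among these 5 genes and among those named as most like the mean of all 9. The points share depth, kit and scaling, and the r values are descriptions.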
